A study of Mus musculus with 3 samples.

Results

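The miR-130/miR-301 family in mouse TAG1 ES cells consists of the mature miRNAs cut from 4 hairpins, those of miR-130a, miR-130b, miR-301a and miR-301b. The members were taken by name, as every arm of these hairpins in the deposited files. All 8 arms were listed, 4 from the 3p side and 4 from the 5p side, among 693 listed miRNAs. TAG1 is an ES cell line in which doxycycline (Dox) switches on Alk4*, a constitutively active type I receptor that phosphorylates Smad2/3. Short RNA was sequenced from 3 libraries, with 1 library per condition. The Control library came from untreated TAG1 cells in medium with FBS. The SB library came from TAG1 cells kept for 16 hrs in 30 µM of the inhibitor SB-431542 (spelled SB-431541 in the sample labels), which blocks phosphorylation of Smad2/3. For the Dox library, TAG1 cells had the same 16 hrs of SB and then 12 hrs of 1 µg/µl Dox. Treated cells grew in knockout serum replacement in place of FBS, so the medium and the treatment cannot be told apart in a comparison with Control. In Dox over SB, these libraries cannot tell Alk4* induction apart from Dox itself or from the 12 hrs of further culture.

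A miRNA hairpin is cut by Drosha and then by Dicer into a short duplex. Usually the strand that enters Argonaute (the guide) accumulates, and its partner (the passenger) is degraded. The guide finds its target mRNAs mainly through the seed, bases 2 to 8 from its 5′ end, so miRNAs with the same seed are grouped as a family. In the miR-130/miR-301 family the 3p strands carry the family seed. They are known as repressors of the adipogenic nuclear receptor Pparg in several cell types.

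RefSeq sequences (GRCm38.p6) were found for 7 of the 8 members, and miR-301b-3p is named only. The 3p arms are shown because the shared seed, in capitals, defines the family. They have the first 9 bases in common and diverge after them.
miR-130a-3p: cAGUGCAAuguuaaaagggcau
miR-130b-3p: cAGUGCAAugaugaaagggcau
miR-301a-3p: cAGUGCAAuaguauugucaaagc
In an alignment from base 1 without gaps, miR-130a-3p and miR-130b-3p were identical at 20 of 22 positions, and miR-130a-3p and miR-301a-3p at 12 of 22. The same seed was found in 4 further RefSeq mature sequences, miR-130c, miR-721, miR-6341 and miR-6389, none of which is listed in the files.

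The 5p arms are shown with their own seeds in capitals, because they belong to other seed groups than the 3p arms.
miR-130a-5p: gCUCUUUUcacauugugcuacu
miR-130b-5p: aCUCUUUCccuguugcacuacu
miR-301a-5p: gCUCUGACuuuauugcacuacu
miR-301b-5p: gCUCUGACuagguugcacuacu
The seed of miR-301a-5p and miR-301b-5p is the same, and these arms were identical at 19 of 22 positions. Those of miR-130a-5p and miR-130b-5p differ from it and from each other. The reverse complement of the family seed, UUGCACU, lies in 3 of the 4 5p arms and not in miR-130a-5p. These strands face the 3p seed in the duplex.

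The hairpins occupy 3 loci in GRCm38. Mir130a (64 bases) lies on the minus strand of chromosome 2 from 84741115 to 84741178 and overlaps no other GENCODE M21 gene. The hairpin of miR-301a, annotated as Mir301 (86 bases), lies on the plus strand of chromosome 11 from 87113004 to 87113089, in an intron of Ska2, which encodes a kinetochore protein. Mir130b and Mir301b are neighbours on the minus strand of chromosome 16, from 17124061 to 17124142 and from 17124400 to 17124496. Both lie in an intron of 2610318N02Rik, with 257 bases between them. Mir130a and Mir130b are shown whole, with both arms in capitals, since the arms of each gave different ratios between libraries.
Mir130a: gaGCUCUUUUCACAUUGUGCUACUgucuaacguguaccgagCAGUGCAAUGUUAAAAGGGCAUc
Mir130b: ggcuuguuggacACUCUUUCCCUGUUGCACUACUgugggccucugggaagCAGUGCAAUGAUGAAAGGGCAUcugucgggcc

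Reads of more than 16 bases were matched by the authors without mismatches. The longest run of bases shared by a pair of the 7 mature members with a sequence was 11, between miR-130b-5p and miR-301b-5p, and miR-301a-3p shared 13 with the Mir301b hairpin. With any other RefSeq mature sequence or hairpin the longest run was 15, between miR-130a-3p and miR-6389. A perfect match of over 16 bases within any of the 7 mature sequences therefore fitted no other sequence in the table.

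Levels are given in rpm, the reads of a miRNA per 1000000 reads of its library, and their intervals are 95% exact Poisson intervals. The rpm values of each library are whole multiples of a single step, which gave back the number of reads. A step of 1 read was worth 0.0913 rpm in Control, 0.0881 rpm in SB and 0.101 rpm in Dox, and reads on listed miRNAs numbered between 2739358 and 3302828 per library. A miRNA was called lower or higher by the criteria of the study, a level at least 20% lower or 25% higher together with a Z-score past the 5% level on either side. The Z-score tests the reads of a pair of libraries. It compares those libraries and not the conditions, and no difference here has a replicate check. Counting error is all that the intervals cover, because each condition has 1 library. PCR copies of a molecule were not marked and reads are not independent of each other, so the intervals can be too narrow even for counting error.

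The family was mainly miR-130a-3p and miR-130b-3p. miR-130a-3p had 1402 rpm in Control (15364 reads), 1025 rpm in SB (11642 reads) and 1707 rpm in Dox (16887 reads). It was lowest in SB and, in rpm, highest in Dox (in quantile-normalized values Dox over Control was −0.077 on the log2 scale), and ranked 40, 49 and 41 among the listed miRNAs in these libraries. miR-130b-3p had 570 rpm in Control (6245 reads), 326 rpm in SB (3704 reads) and 408 rpm in Dox (4037 reads). Its SB level was also the lowest, but its highest level was in Control, and its ranks were 68, 89 and 86.

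The 3p arms of the miR-301 hairpins were far less abundant. miR-301a-3p had 16.4 rpm in Control (14.1 to 19.0), 10.1 rpm in SB (8.36 to 12.2) and 10.2 rpm in Dox (8.31 to 12.4), from 180, 115 and 101 reads. Its SB and Dox levels lay within each other's counting interval. miR-301b-3p had 20.6 rpm in Control (18.03 to 23.5), 9.60 rpm in SB (7.88 to 11.6) and 5.66 rpm in Dox (4.27 to 7.35), from 226, 109 and 56 reads. It was thus lower in each treated library than in Control, and lowest in Dox. Among the 3p arms the order of levels was miR-130a-3p, miR-130b-3p and then the miR-301 pair in every library. Within that pair the intervals overlapped in Control and in SB, and in Dox miR-301a-3p was the higher.

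**Figure D1:**
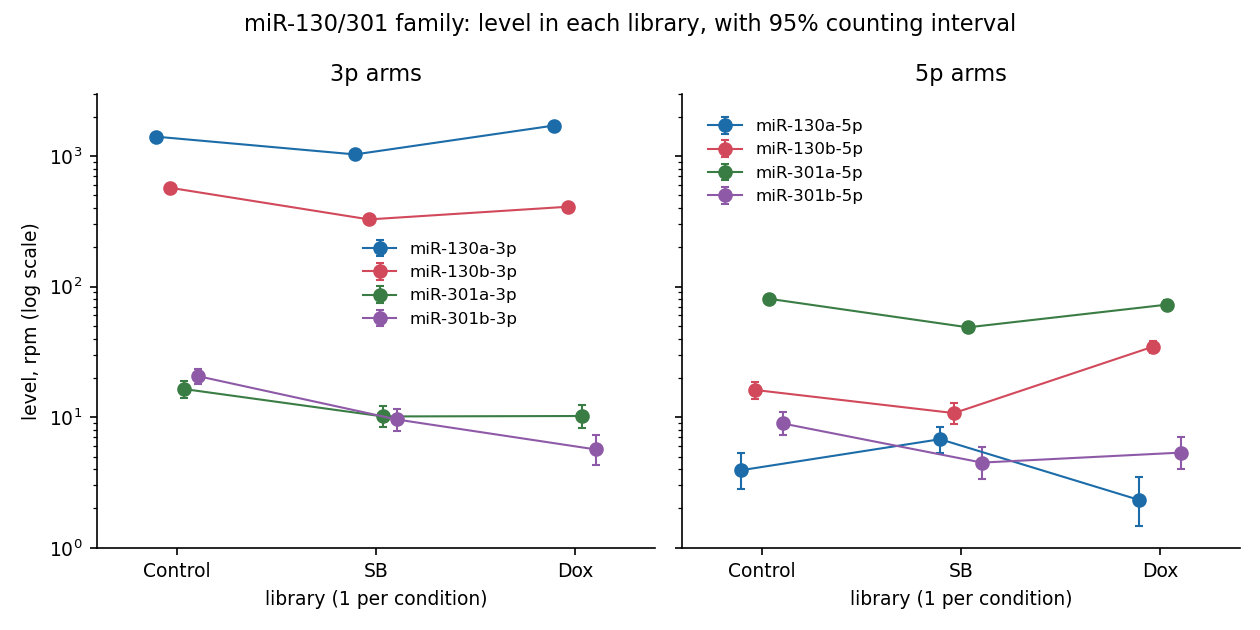
Level of each arm in rpm (log axis) in the 3 libraries, 3p arms on the left and 5p arms on the right; points are single libraries, bars are 95% Poisson counting intervals and lines only join points of the same arm. miR-130a-3p runs from 1402 to 1025 to 1707 rpm, miR-301b-3p goes down at both steps, and miR-130a-5p is the only arm with its highest level in SB (6.78 rpm).

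Among the 5p arms, miR-301a-5p was the most abundant, with 80.6 rpm in Control (883 reads), 48.7 rpm in SB (553 reads) and 72.7 rpm in Dox (719 reads). Its level exceeded that of its 3p partner in every library. miR-130b-5p had 16.2 rpm in Control (13.9 to 18.7), 10.7 rpm in SB (8.92 to 12.8) and 34.7 rpm in Dox (31.1 to 38.5), from 177, 122 and 343 reads. Its Dox level stood above the other libraries, with intervals that did not overlap. miR-301b-5p had 8.95 rpm in Control (7.26 to 10.9), 4.49 rpm in SB (3.34 to 5.91) and 5.36 rpm in Dox (4.01 to 7.01), from 98, 51 and 53 reads. The treated libraries could not be told apart by counting for this arm. miR-130a-5p had 3.92 rpm in Control (2.84 to 5.29), 6.78 rpm in SB (5.35 to 8.48) and 2.32 rpm in Dox (1.47 to 3.49), from 43, 77 and 23 reads. It was the least abundant arm in Control and in Dox and the only one that peaked in SB.

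After inhibition of Smad2/3 phosphorylation, the comparison of SB over Control, 7 of the 8 arms were called lower and 1 was called higher. Over all listed miRNAs 30.2% were called lower and 15.3% higher in this comparison. The median log2 ratio was −0.71 over the 8 arms and −0.19 over all listed miRNAs. miR-130a-3p had the smallest decrease, with a log2 ratio of −0.45 (−0.49 to −0.42), and miR-301b-3p had the largest, with −1.10 (−1.45 to −0.77), or 2.15-fold. The log2 ratio of miR-130b-3p was −0.81 (−0.86 to −0.75) and that of miR-301a-3p was −0.70 (−1.05 to −0.35). Of the 5p arms, miR-301b-5p gave −0.99 (−1.51 to −0.49), miR-301a-5p −0.73 (−0.88 to −0.57) and miR-130b-5p −0.59 (−0.93 to −0.25). The exception was miR-130a-5p, with 0.79 (0.23 to 1.36). Both arms of the Mir130b, Mir301b and Mir301 hairpins were thus called lower in SB, and only the Mir130a hairpin had arms on both sides.

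In the comparison of Dox over SB, which covers Alk4* induction, Dox itself and 12 hrs of further culture, the arms spread out. Of the 8 arms, 4 were called higher and 2 lower, where 41.7% of all listed miRNAs were called higher and 17.9% lower. The members' median log2 ratio was 0.29, against 0.38 over all listed miRNAs. miR-130b-5p had the largest increase, 3.23-fold, with a log2 ratio of 1.69 (1.39 to 2.00) and rank 61 from the top of all listed miRNAs. For miR-130a-3p the log2 ratio was 0.74 (0.70 to 0.77), or 1.66-fold, and for miR-301a-5p it was 0.58 (0.42 to 0.74), or 1.49-fold. miR-130b-3p stood just inside the fold threshold, at 1.251-fold and a log2 ratio of 0.32 (0.26 to 0.39). miR-301b-5p at 0.25 (−0.33 to 0.84) and miR-301a-3p at 0.01 (−0.39 to 0.41) were not called, and their intervals leave room for a change in either direction. The arms called lower were miR-301b-3p, with −0.76 (−1.25 to −0.28), and miR-130a-5p, with −1.54 (−2.28 to −0.86), or 2.92-fold.

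The study looked for miRNAs that were lower in SB than in Control and higher again in Dox than in SB. This profile was met by miR-130a-3p, miR-130b-3p, miR-130b-5p and miR-301a-5p, or 4 of the 8 arms, where 20.9% of all listed miRNAs met it. The count depended on the settings. Only 1 arm, miR-130b-5p, met the profile with scaling to listed miRNA reads, under the median of ratios and with a fold threshold of 1.5. Under quantile normalization 2 arms met it, miR-130a-3p and miR-130b-5p. The share of all listed miRNAs was counted only in rpm with the criteria of the study. The counts under other settings therefore cannot be set against an overall share. miR-130a-5p had both directions turned round, as had 9.67% of all listed miRNAs. Both ratios contain the SB library and are therefore not independent of each other.

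**Figure D2:**
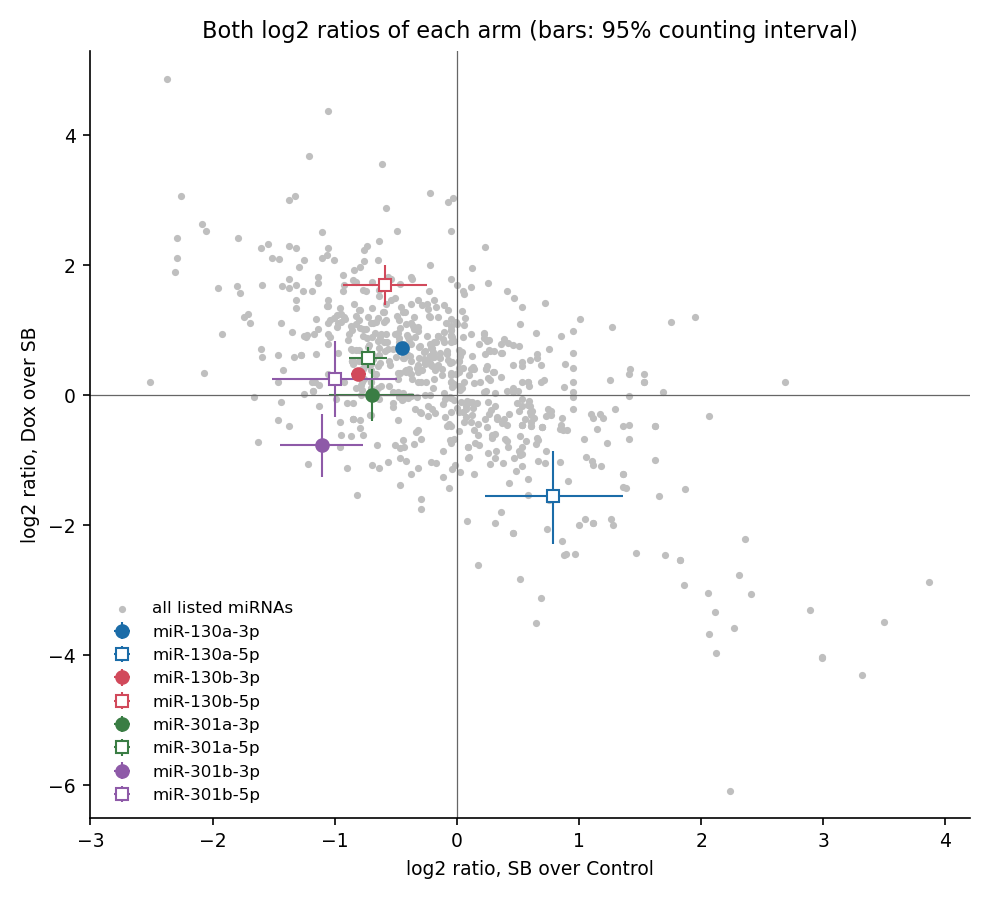
Log2 ratio of SB over Control (horizontal) and of Dox over SB (vertical) for the 8 arms, filled circles for 3p and open squares for 5p, with 95% Clopper-Pearson counting intervals, over all 693 listed miRNAs in grey. All arms but miR-130a-5p lie left of 0, while their vertical positions run from −1.54 to 1.69; both axes use the SB library.

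In Dox over Control, 5 of the 8 arms were called lower and 1 higher, with 19.8% of all listed miRNAs called lower and 30.6% higher. The median log2 ratio was −0.58 over the arms and 0.19 over all listed miRNAs. miR-301b-3p had the largest decrease of the family, 3.65-fold, with a log2 ratio of −1.87 (−2.31 to −1.44), which was rank 13 from the bottom of all listed miRNAs. miR-130b-3p had −0.48 (−0.54 to −0.43), miR-301a-3p −0.69 (−1.05 to −0.33) and miR-301b-5p −0.74 (−1.25 to −0.24). miR-130a-5p also met the criteria, at −0.76, but its interval (−1.55 to 0.01) included 0 and the call was lost with a pseudocount of 1 rpm. miR-130b-5p was the arm called higher, with 1.10 (0.84 to 1.37), or 2.15-fold. miR-130a-3p, at 0.28 (0.25 to 0.31) or 1.22-fold, and miR-301a-5p, at −0.15 (−0.29 to −0.01), stayed below the fold threshold.

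The 5p and 3p arms of a hairpin come from the same precursor, and their ratio within a library is not changed by a scaling factor of the library. Changes of this ratio are given as odds ratios with 95% exact conditional intervals. Of the reads of the Mir130b hairpin, the 5p arm took 2.76% in Control (2.37 to 3.19), 3.19% in SB (2.65 to 3.80) and 7.83% in Dox (7.05 to 8.67). SB and Control did not differ beyond counting error, with an odds ratio of 1.16 (0.91 to 1.48), whereas in Dox over SB the odds of the 5p arm were 2.58 times higher (2.08 to 3.21).

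The Mir130a hairpin went the other way. Its 5p share was 0.279% in Control (0.202 to 0.376), 0.657% in SB (0.519 to 0.821) and 0.136% in Dox (0.0862 to 0.204). The odds ratio was 2.36 (1.61 to 3.52) for SB over Control and 0.206 (0.123 to 0.332) for Dox over SB. These shares rest on 43, 77 and 23 reads of the 5p arm.

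The miR-301 hairpins had a larger share of 5p reads than the miR-130 hairpins did. The miR-301a hairpin gave 83.1% of its reads from the 5p arm in Control (80.7 to 85.3), 82.8% in SB (79.7 to 85.6) and 87.7% in Dox (85.2 to 89.9). The strand with the family seed thus had the fewer reads. Read shares of different sequences were not checked against the amounts of the strands. The odds ratio in Dox over SB was 1.48 (1.10 to 2.00). For miR-301b the 5p share was 30.2% in Control (25.3 to 35.6), 31.9% in SB (24.7 to 39.7) and 48.6% in Dox (38.9 to 58.4). Its odds ratio in Dox over SB was 2.02 (1.19 to 3.44). Hence 3 hairpins had a higher 5p share in Dox than in SB and the Mir130a hairpin had a lower one.

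**Figure D3:**
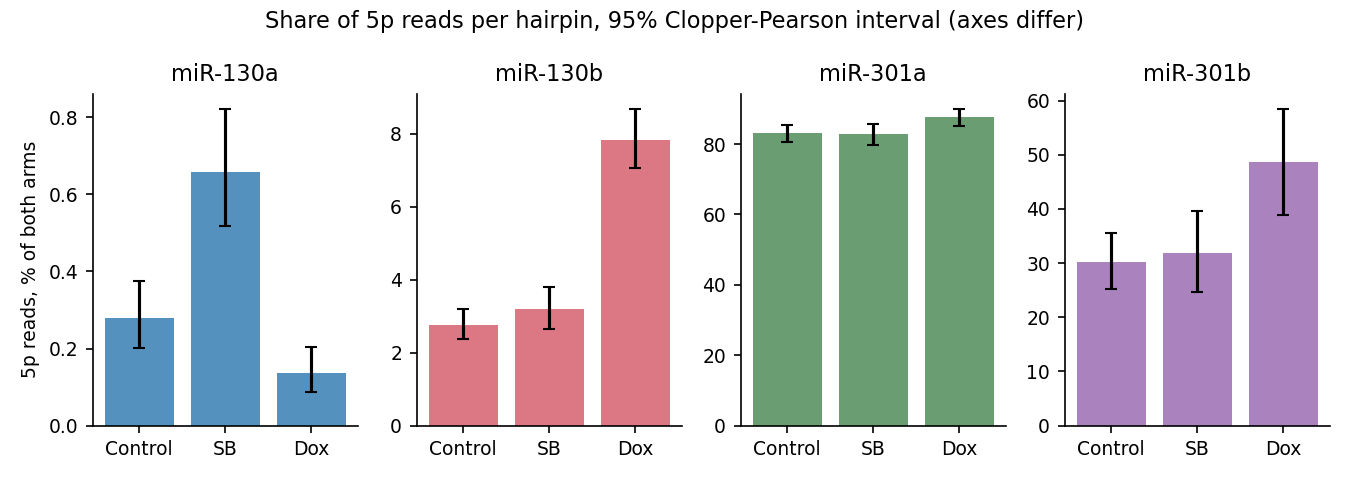
Reads of the 5p arm as a percentage of the reads of both arms, for each hairpin and library, with 95% Clopper-Pearson intervals; the vertical axes differ and start at 0. The 5p share of miR-130b goes from 3.19% in SB to 7.83% in Dox and that of miR-130a from 0.657% to 0.136%. Only for miR-301a do 5p reads outnumber 3p reads in every library.

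Shifts between arms were also measured in other hairpins. In 136 hairpins that had at least 20 reads of each arm in every library, a set chosen after the values of the family had been seen, the 5p log2 ratio minus the 3p log2 ratio had a median of 0.25 in Dox over SB, with the middle 95% between −1.97 and 2.28. The Mir130a hairpin, at −2.28, was at rank 2 from the bottom. Mir130b at 1.37, miR-301b at 1.02 and miR-301a at 0.57 lay within the middle 95%, at ranks 16, 27 and 47 from the top.

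Summed over the 3p arms, which share the family seed, the level was 2009 rpm in Control (22015 reads), 1371 rpm in SB (15570 reads) and 2130 rpm in Dox (21081 reads). The log2 ratio of this sum was −0.55 (−0.58 to −0.52) in SB over Control and 0.64 (0.61 to 0.67) in Dox over SB. In Dox over Control it was 0.08 (0.06 to 0.11), a 1.06-fold difference that is under the fold threshold, and it lay between −0.23 and −0.11 under 3 other scalings of the libraries. The sum followed miR-130a-3p: without that arm the level was 607 rpm in Control, 346 rpm in SB and 424 rpm in Dox, and Dox over Control turned to −0.52 (−0.57 to −0.46).

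The mix of the seed-bearing strands changed from library to library. miR-130a-3p held 69.8% of the 3p reads in Control (69.2 to 70.4), 74.8% in SB (74.1 to 75.5) and 80.1% in Dox (79.6 to 80.6). miR-130b-3p held 28.4%, 23.8% and 19.1% in the same order. The share of miR-301b-3p was 1.03% in Control (0.898 to 1.17), 0.700% in SB (0.575 to 0.844) and 0.266% in Dox (0.201 to 0.345). Thus miR-130a-3p had a larger share in each treated library than in the one before, with intervals that did not overlap.

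Scaling factors likewise leave ratios between members of a library as they are, whereas quantile normalization changes them. The reads of miR-130b-3p against miR-130a-3p were lower in SB than in Control, with an odds ratio of 0.783 (0.746 to 0.821), and lower in Dox than in SB, with 0.751 (0.714 to 0.791). For miR-301a-3p against miR-130a-3p the odds ratio was 0.843 (0.661 to 1.07) in SB over Control, which included 1, and 0.605 (0.458 to 0.799) in Dox over SB. Within the chromosome 16 locus, miR-301b-3p against miR-130b-3p gave 0.813 (0.639 to 1.03) in SB over Control and 0.471 (0.334 to 0.659) in Dox over SB. The neighbouring hairpins thus gave unequal ratios for their 3p arms after Dox, while after SB their difference stayed within counting error. After quantile normalization the log2 difference of miR-301a-3p and miR-130a-3p in SB over Control was −0.05, against −0.25 in rpm, and that of miR-130b-5p and miR-130b-3p in Dox over SB was 1.23, against 1.37.

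By locus, the reads of both arms of Mir130a summed to 1406 rpm in Control, 1032 rpm in SB and 1709 rpm in Dox. The 4 arms of the Mir130b and Mir301b locus summed to 616, 351 and 454 rpm, and both arms of miR-301a to 97.0, 58.8 and 82.9 rpm. In SB over Control the log2 ratios were −0.45 (−0.48 to −0.41), −0.81 (−0.87 to −0.75) and −0.72 (−0.86 to −0.58). In Dox over SB they were 0.73 (0.69 to 0.76), 0.37 (0.31 to 0.43) and 0.49 (0.35 to 0.64). The Mir130a locus therefore had the smallest decrease and the largest increase of the 3 loci. In rpm it alone was above Control in Dox, with a log2 ratio of 0.28 (0.25 to 0.31), which was 0.04 with scaling to listed miRNA reads, 0.08 under the median of ratios and −0.08 under quantile normalization. The Dox over SB ratio of the Mir130b and Mir301b locus was −0.10, −0.01 and 0.12 under the same settings, that of miR-301a was 0.03, 0.11 and 0.21, and that of Mir130a was 0.26, 0.35 and 0.36.

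The scaling of the libraries decided some of the calls. Reads on listed miRNAs made up 28.3% of the total behind the rpm values in Control, 24.1% in SB and 33.4% in Dox. After rescaling to these reads, the median log2 ratio of all listed miRNAs moved from −0.19 to 0.04 in SB over Control and from 0.38 to −0.09 in Dox over SB. The split of calls over all listed miRNAs moved with it, from 209 lower and 106 higher to 148 and 167 in SB over Control, from 124 lower and 289 higher to 215 and 164 in Dox over SB, and from 137 lower and 212 higher to 192 and 143 in Dox over Control. In SB over Control, 6 of the 7 arms were called lower under each of 3 other scalings (listed miRNA reads, the median of ratios, quantile normalization), and miR-130a-3p under quantile normalization but not under the other pair. Over all listed miRNAs, 21.4%, 22.2% and 25.5% were called lower there, in the same order of scalings. In Dox over SB, miR-130b-5p was called higher, and miR-130a-5p and miR-301b-3p lower, under each of these scalings. miR-301a-5p lost its call under all 3. miR-130a-3p kept its call under quantile normalization and the median of ratios and lost it with scaling to listed miRNA reads, and miR-130b-3p changed direction under the latter pair, to −0.057 and −0.15. It also lost its call with a pseudocount of 1 rpm and with scaling to the read totals that the study states, where its log2 ratio was 0.26. miR-301a-3p, not called in Dox over SB under the authors' rpm, was called lower with scaling to listed miRNA reads. In Dox over Control, miR-301a-5p was called lower under the median of ratios and with scaling to listed miRNA reads. The profile of lower in SB and higher in Dox was kept by miR-130b-5p under all 3 scalings and by miR-130a-3p under quantile normalization alone.

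**Figure D4:**
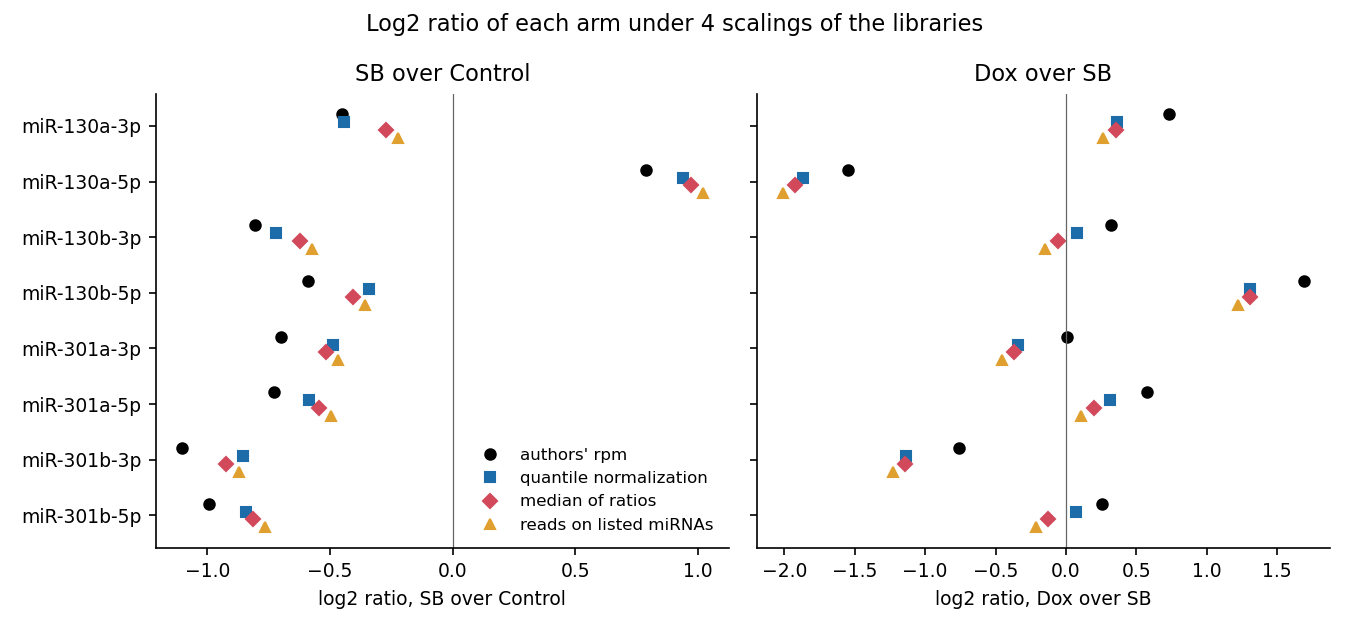
Log2 ratio of each arm in SB over Control (left) and in Dox over SB (right) under the authors' rpm and 3 other scalings of the libraries; each point is the ratio of a pair of single libraries. All arms but miR-130a-5p stay below 0 on the left, whereas on the right miR-130b-3p, miR-301a-3p and miR-301b-5p cross 0 and only miR-130a-3p, miR-130b-5p and miR-301a-5p stay above 0 under all 4.

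The miRNAs nearest to a member were those at the smallest distance in the plane of both log2 ratios, SB over Control and Dox over SB, among 290 other miRNAs with at least 100 reads in each of the 3 libraries. For miR-130a-3p they were miR-423-3p (distance 0.03), miR-450b-3p (0.06) and miR-183-3p (0.07). For miR-130b-3p they were miR-676-3p (0.09), miR-382-3p (0.13) and miR-30e-3p (0.14). These distances compare 3 libraries and are a description only.

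Markers of ES cells were abundant in all libraries. A list of 11 ES cell miRNAs from the miR-290 and miR-302 clusters was found whole, and its sum was 70826 rpm in Control, 56437 rpm in SB and 78503 rpm in Dox. Most of its miRNAs did not follow the sum: 4 were called higher and 1 lower in SB over Control (15.3% and 30.2% of all listed miRNAs), and 2 higher and 7 lower in Dox over SB (41.7% and 17.9%). The miRNA called lower in SB was miR-290-5p, the only 5p arm of the list. Its log2 ratio was −0.98 in SB over Control and 1.05 in Dox over SB. By the levels that the study lists, it made up a large part of the sum. The sum of 8 fibroblast miRNAs, all present, was 3505 rpm in Control, 8514 rpm in SB and 4088 rpm in Dox. It was highest in SB, where miR-130a-5p was also highest and the other 7 arms of the family were called lower than in Control. All 8 were called higher in SB over Control, against 15.3% of all listed miRNAs, and 7 were called lower in Dox over SB, against 17.9%. Of 3 blood and endothelial miRNAs, miR-223-3p was not listed and the other two summed to between 4.02 and 6.77 rpm. The part of these cells in the values of the family was not tested. miR-26a-5p, which served the study as a qPCR reference, had 647 rpm in Control, 766 rpm in SB and 798 rpm in Dox.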

How the data were processed

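Small RNA libraries of TAG1 cells were made from total RNA, 1 per condition, and 2 sequencing runs per library were pooled. Per the study's methods, the authors trimmed adaptors, kept reads over 16 bases and aligned them with Bowtie (version 0.12.7, also in the submitters' processing notes) to miRBase (mature miRNAs, then hairpins) without mismatches. Reads with several matches were assigned by length or to each miRNA. The deposited values are in rpm, scaled by the authors per library, and list miRNAs that had at least 10 reads in all.

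The step of each library was found from its values, and all 2079 values were within 0.01 reads of a whole number. The corresponding totals were 10955686 reads (Control), 11354692 (SB) and 9895513 (Dox), which are 91.8%, 91.9% and 87.8% of the read totals that the study states. What the remaining reads were is not given in the sources used here. No pseudocount was added to the rpm before ratios were taken. The Z-score was computed for each listed miRNA as a difference of proportions, with its proportion pooled over the pair of libraries compared. Intervals were Poisson for levels, Clopper-Pearson for shares and ratios, and conditional exact for odds ratios (Python 3.11.15, scipy 1.17.1). With 1 library per condition no p-value was computed.

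Hairpin positions came from RefSeq and GENCODE M21 (GRCm38). Mature sequences were matched by name for 516 of the 693 miRNAs (74.5%). Members, lists and the rule for named miRNAs (all arms, offset seeds, the 3 nearest to miR-130a-3p and to miR-130b-3p, miR-26a-5p) were chosen with earlier results of these data known. Alternatives were 3 other scalings, a pseudocount of 1 rpm, a minimum of 100 reads and a fold threshold of 1.5. Scaling to the stated read totals was added after the data had been seen. No sample was left out.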

Additional observations from a re-analysis of the deposited data

How the results depend on the processing

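The summed 3p level kept its direction in SB over Control and in Dox over SB under all other scalings. With scaling to listed miRNA reads, by the median of ratios and by quantile normalization, the log2 ratio of SB over Control was −0.32, −0.37 and −0.52, that of Dox over SB was 0.17, 0.26 and 0.29, and that of Dox over Control was −0.15, −0.11 and −0.23. The last differs in sign from the 0.08 of the authors' rpm. With scaling to the stated read totals, an alternative chosen after the data had been seen, Dox over SB was 0.57 and Dox over Control 0.020. The number of arms called higher in Dox over SB was 1 with scaling to listed miRNA reads, 2 by the median of ratios, 2 by quantile normalization and 2 with a fold threshold of 1.5, against 4, while 23.7%, 27.1%, 29.4% and 34.9% of all listed miRNAs were called higher, against 41.7%. miR-130b-3p turned to −0.15 with scaling to listed miRNA reads and to −0.057 by the median of ratios. The causes were not tested. The other counts of arms called lower or higher in a comparison stayed within 1.5 times their value under all alternatives, and with the pseudocount all 24 ratios of single arms stayed within their counting intervals, but miR-130b-3p was no longer called higher in Dox over SB, nor miR-130a-5p lower in Dox over Control. The profile of lower in SB and higher in Dox, met by 4 arms in rpm, was met by 1 with scaling to listed miRNA reads, 1 by the median of ratios, 1 with a fold threshold of 1.5, 2 by quantile normalization, 3 with the pseudocount and 3 with scaling to the stated read totals. The share of all listed miRNAs that met the profile was not counted under these alternatives, so the counts cannot be set against it. A minimum of 100 reads over the libraries removed no arm but raised the shares over all miRNAs kept to 40.4% lower in SB over Control, 53.1% higher in Dox over SB and 25.1% lower in Dox over Control, so that the 4 of 8 arms called higher in Dox over SB were then below the overall share.

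Depth limits the rarer arms most, since miR-130a-5p, miR-301b-5p and miR-301b-3p had 23, 51 and 56 reads in their lowest library. No paired analysis was possible because each condition has 1 library, so the spread between cultures was not measured.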

Other observations

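A set of 7 listed miRNAs outside the family has a seed that shares 6 consecutive bases with the family seed. They are miR-148a-3p, miR-148b-3p and miR-152-3p (seed CAGUGCA), miR-19a-3p and miR-19b-3p (GUGCAAA), and miR-291b-3p and miR-350-5p (AAGUGCA). None of the 7 was called in SB over Control, where their median log2 ratio was −0.06 and the range −0.31 to 0.06, with 30.2% of all listed miRNAs called lower and 15.3% higher. miR-19a-3p, miR-291b-3p and miR-350-5p had only 28 to 49 reads per library, and the latter pair had log2 ratios of −0.31 and −0.29. In Dox over SB 2 were called higher and 1 lower, with a median of 0.42, where 41.7% of all listed miRNAs were called higher and 17.9% lower and their median was 0.38.

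Most abundant of them was miR-152-3p, with 502 rpm in Control, 427 rpm in SB and 379 rpm in Dox. miR-148a-3p had 186, 189 and 252 rpm, and miR-148b-3p had 70.8, 73.8 and 157 rpm in the same order, so both had their highest level in Dox. miR-19b-3p, a member of the oncogenic miR-17~92 cluster, had 119, 114 and 83.7 rpm and was lowest in Dox. The search covered the 516 listed miRNAs with a RefSeq mature sequence, and the difference between this set and the family was not tested.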
